A study of Mus musculus with 6 samples.

Results

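Integrins and a selectin ligand that blood cells use for homing were followed in sorted leukaemia initiating cells (LICs), cells that can seed a leukaemia again, of mouse leukaemias labelled adult or neonatal. The 9 genes, Itgal, Itgam, Itgb2, Itga4, Itgb7, Itgb1, Itga5, Itga6 and Selplg, were taken by name from the 23337 genes of the count table. All 9 passed the filter on low counts. The adult group held 3 libraries, replicates 1, 2 and 4, and the neonatal group held 3, replicates 4, 7 and 8. Every library was polyA-selected RNA of sorted mouse LICs, with haematopoietic stem and progenitor cells as the labelled source. The labels give no strain, sex, leukaemia driver, sorting markers or age in days. Nothing in them ties each replicate to an animal of its own, so p-values here reflect how far these samples scatter, which can be technical.

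Integrins are pairs of an alpha and a beta chain that stay folded until signals inside the cell switch them on. Leukocytes carry beta2 integrins, which bind ICAM proteins on vessel walls, and beta1 and beta7 integrins, which bind VCAM1, MAdCAM1, fibronectin and laminin. Before an integrin grips, a leukocyte rolls on selectins, and Selplg (PSGL-1) is the main protein on which leukocytes present sugars to P-selectin. In bone marrow the alpha4beta1 pair (VLA-4) is known for holding stem and progenitor cells to VCAM1 and fibronectin.

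Adult libraries held 60113466 to 65183188 counts, neonatal replicates 7 and 8 held 64712241 and 66132051, and neonatal replicate 4 held 3932833. Neonatal replicate 4 also had fewer reads from long and GC-rich genes. Against the mean of neonatal replicates 7 and 8, its median log2 difference was 0.92 for the shortest and -0.79 for the longest of 4 equal classes of exon length, and 0.57 for the lowest and -1.13 for the highest of 4 classes of GC content. Adult libraries differed from neonatal replicates 7 and 8 along GC content too, with a median log2 difference of 0.45 in the lowest and -0.55 in the highest class. Results below are therefore given on 6 libraries and on the 5 deep ones, without neonatal replicate 4. The labelled blood origin was matched by Ptprc, the pan-leukocyte CD45 gene, at 262.8 to 322.6 CPM (read counts scaled to the TMM library size) in adult and 143.8 to 270.9 CPM in neonatal LICs. Of 14 markers of the labelled source, Ptprc among them, 8 had a positive log2 fold change, adult minus neonatal, on 6 libraries. Flt3 was at 4.58 to 19.4 CPM in adult against 256.2 to 1231 CPM in neonatal LICs. Cd34 was at 8.16 to 105.4 CPM in adult against 396.0 to 662.1 CPM in neonatal LICs. The B cell genes Ms4a1 and Pax5, the T cell genes Cd3e and Cd3g, and the endothelial genes Cdh5, Kdr and Emcn had 0 counts in every library. Over all 8 endothelial markers the sum was 8.93 to 11.9 CPM in adult and 23.3 to 24.4 CPM in neonatal libraries, without overlap, and most of the neonatal sum was Egfl7 (4.6 to 9.43 CPM against 19.4 to 22.5 CPM). Xist was at 0.610 to 0.919 CPM in adult and 51.7 to 185.9 CPM in neonatal libraries, and the Y-linked Ddx3y at 98.8 to 154.4 and 0 to 0.0148 CPM, so that sex and age group cannot be told apart. In bulk samples such as these, fewer cells of a type and less RNA per cell cannot be told apart either.

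On 6 libraries none of the 9 genes passed edgeR's quasi-likelihood test with Benjamini-Hochberg adjustment over all genes. Of 13272 genes tested 0.0527% passed, 0.0377% higher and 0.0151% lower in adult LICs. With chromosomes X and Y left out 0 of 12848 genes passed, and none of the 9 lies on these chromosomes. Selplg and Itgb7 had unadjusted p under 0.05 in the edgeR test on 6 libraries. DESeq2 called Selplg and Itgb7 on the same libraries, both lower in adult LICs, as 334 of the 16927 genes it tested were. On the 5 deep libraries 3 of the 9 genes, Itga5, Itgal and Selplg, fell in adult LICs by edgeR, against 3.72% of 13856 genes tested, and none rose, against 2.25%. The median log2 fold change of the 9, adult minus neonatal, was -0.82 on 6 libraries (all genes tested -0.05) and -1.36 on 5 (all genes tested 0.05). None of the 3 calls held once the dependence of counts on gene length and GC was removed library by library, a setting in which 8 genes of the whole table passed on 5 libraries. On 6 libraries CPM did not overlap between the groups for Itgam, higher in adult LICs as 12.0% of all genes tested were, or for Selplg and Itgb7, lower as 7.67% were (19.6% in either direction). On 5 libraries 6 of the 9 were lower without overlap (Itga5, Itga6, Itgal, Itgb2, Itgb7 and Selplg; 25.0% of all genes tested) and Itgam was higher (25.6%, and 50.6% in either direction).

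**Figure D1:**
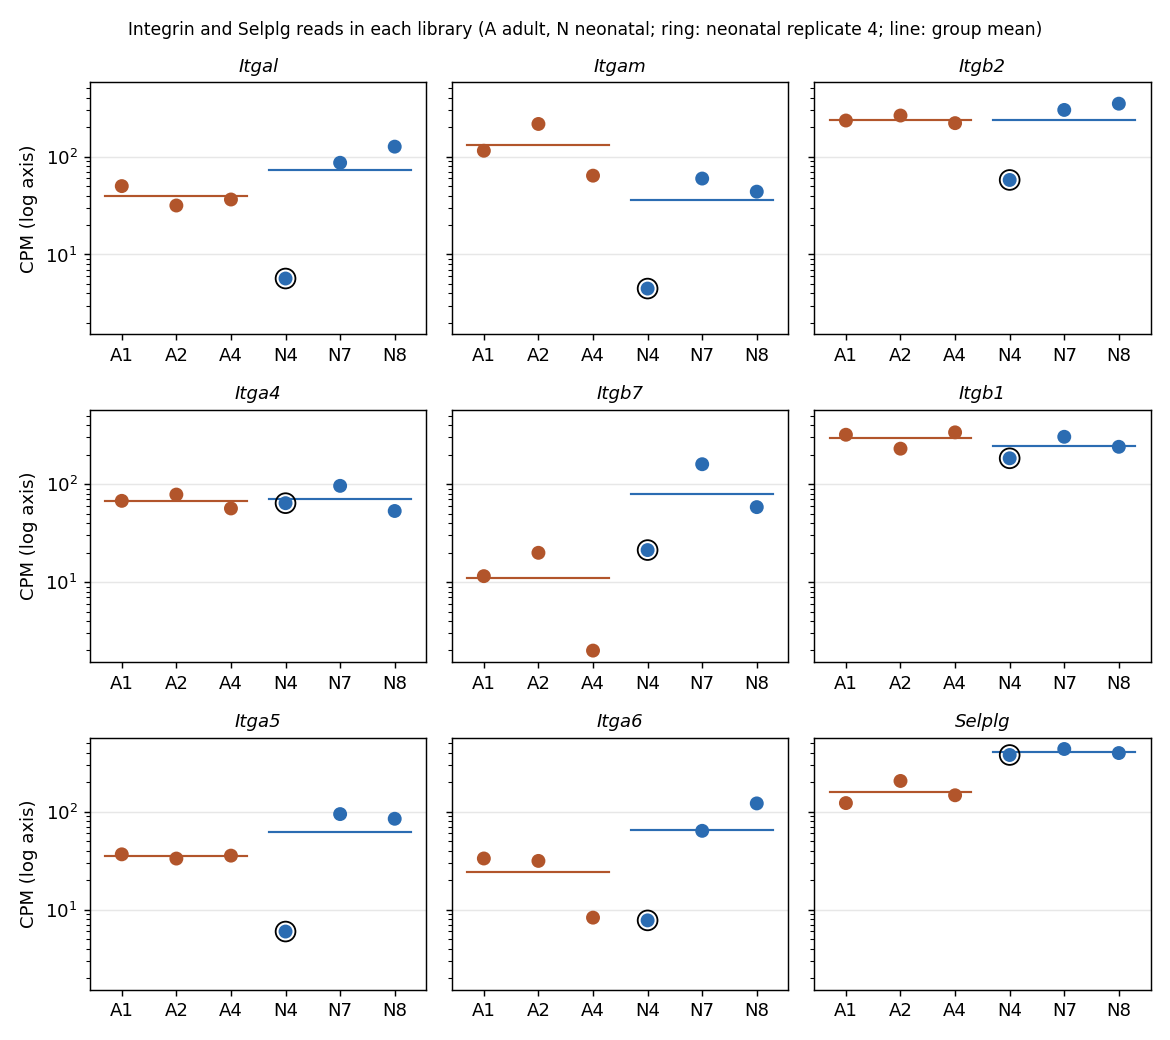
CPM on a log axis for each of the 9 genes in each library (A adult, N neonatal, numbers are replicates), with group means as lines and neonatal replicate 4 ringed. Selplg had 122.7 to 206.5 CPM over the adult libraries against 380.2 to 437.9 CPM over the neonatal ones. Itga5, Itgal, Itga6, Itgam, Itgb2 and Itgb1 were lowest in the ringed library.

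Itgal and Itgam encode the alpha chains of LFA-1 and Mac-1, and Itgb2 encodes the beta2 chain they share. Itgal (chromosome 7, 127296260 to 127335137, mm10) had 49.9, 31.6 and 36.4 CPM (adult 1, 2 and 4) against 5.68, 86.4 and 126 CPM (neonatal 4, 7 and 8). The adult values lay close together, below both deep neonatal libraries and above the shallow one, which had 19 counts for this gene (exact Poisson 95% interval 3.42 to 8.87 CPM, counting error only). Its log2 fold change was -0.90 ± 0.84 (SE, edgeR adjusted p = 0.749) on 6 libraries and -1.45 ± 0.27 (SE, edgeR adjusted p = 0.0431) on the 5 deep ones. With the length and GC trend removed on 5 libraries the value was -0.99 (edgeR adjusted p = 0.143). Without neonatal replicate 8 it was -0.25 (edgeR adjusted p = 0.961), and over 21 alternatives its adjusted p spanned 0.000153 to 0.981.

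Itgam (chromosome 7, 128062640 to 128118491), the CD11b gene that marks granulocytes and monocytes, was the one gene of the 9 with a large positive difference. It had 114.7, 215.3 and 63.8 CPM (adult 1, 2 and 4) against 4.48, 59.6 and 43.8 CPM (neonatal 4, 7 and 8). All adult libraries were above all neonatal ones, though adult replicate 4 and neonatal replicate 7 were close. The log2 fold change was 1.85 ± 0.82 (SE, edgeR adjusted p = 0.437), or 1.33 ± 0.51 (SE, edgeR adjusted p = 0.144, range over 21 alternatives 0.0411 to 0.880) on 5 libraries. Of the maturing neutrophil markers, all 13 that were measured had a positive log2 fold change on 6 libraries (11 of 13 on 5, 1 of them called), and their summed level ran from 4457 to 29184 CPM in adult and from 444 to 3648 CPM in neonatal LICs. The sum and Itgam had the same order among the adult libraries, highest in replicate 2 and lowest in replicate 4. They did not among the neonatal ones, where replicate 4 had the highest sum (3648 CPM) and the lowest Itgam. Chi3l3 alone gave 18083, 13772 and 2449 CPM of the sum (adult 1, 2 and 4) and 3241, 1118 and 47.0 CPM (neonatal 4, 7 and 8). The place of neonatal replicate 4 in that order thus rested on this gene. The part of maturing neutrophils in the Itgam difference was not tested.

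Itgb2 (chromosome 10, 77530348 to 77565674) had 233.6, 262.6 and 219.6 CPM (adult 1, 2 and 4) against 57.7, 299.6 and 347.0 CPM (neonatal 4, 7 and 8). Its direction changed with the shallow library and with other settings. The log2 fold change was 0.02 ± 0.58 (SE) on 6 libraries and -0.45 ± 0.17 (SE, edgeR adjusted p = 0.148) on 5. Neither passed the test.

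The 250 bases before the RefSeq start of transcription are shown for Itgam and for Itga5 and Itgb7, genes of the same family that had their highest values in the opposite group (RefSeq, GRCm38.p6, the same assembly as mm10). Windows were found for 5 of the 9 genes. Capitals mark GAGGAA on either strand (TTCCTC on the other), the core that the myeloid factor PU.1 prefers.
Itgam, chr7:128062390-128062639, plus strand: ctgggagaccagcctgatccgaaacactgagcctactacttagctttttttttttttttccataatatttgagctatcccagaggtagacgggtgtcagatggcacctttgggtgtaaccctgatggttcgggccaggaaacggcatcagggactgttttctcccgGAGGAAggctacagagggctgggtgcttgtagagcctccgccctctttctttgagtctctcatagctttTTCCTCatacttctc
Itga5, chr15:103366792-103367041, minus strand: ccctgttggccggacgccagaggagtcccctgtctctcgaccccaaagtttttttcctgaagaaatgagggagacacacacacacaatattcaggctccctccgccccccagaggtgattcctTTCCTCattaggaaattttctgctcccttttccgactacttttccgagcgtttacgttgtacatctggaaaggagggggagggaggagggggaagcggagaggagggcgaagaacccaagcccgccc
Itgb7, chr15:102231936-102232185, minus strand: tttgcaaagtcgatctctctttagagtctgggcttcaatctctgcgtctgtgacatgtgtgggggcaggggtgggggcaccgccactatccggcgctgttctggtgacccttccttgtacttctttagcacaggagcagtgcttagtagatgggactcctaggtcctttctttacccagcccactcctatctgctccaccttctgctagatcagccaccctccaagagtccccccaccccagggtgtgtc
The Itgam window held 2 matches, starting 84 and 15 bases before the start site, the Itga5 window held 1, starting 127 bases before it, and the Itgb7 window held 0. Of 32851 promoter windows of the same length, 23.3% held at least 1 match and 3.54% held 2 or more. A match describes letters and not a bound site.

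Itga4 encodes the alpha4 chain, which pairs with beta1 as VLA-4 or with beta7 as the gut-homing receptor for MAdCAM1. Itga4 (chromosome 2, 79255426 to 79333114) had 67.6, 78.3 and 56.5 CPM (adult 1, 2 and 4) against 64.0, 96.1 and 53.2 CPM (neonatal 4, 7 and 8). The groups overlapped, and the log2 difference was -0.08 ± 0.33 (SE, edgeR adjusted p = 0.958) on 6 libraries. Itgb1 (chromosome 8, 128685654 to 128733579), the beta1 chain, had 319.9, 230.5 and 338.3 CPM (adult 1, 2 and 4) against 183.8, 304.9 and 240.9 CPM (neonatal 4, 7 and 8), again with overlap (log2 fold change 0.28 ± 0.32, SE, edgeR adjusted p = 0.807). With the length and GC trend removed on 5 libraries, Itga4 was at -0.81 (edgeR adjusted p = 0.166) and Itgb1 at -0.08.

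Itgb7 (chromosome 15, 102215995 to 102231935), the beta7 chain, varied more between libraries than any other of the 9 genes. It had 11.5, 19.9 and 1.99 CPM (adult 1, 2 and 4) against 21.2, 159.9 and 58.3 CPM (neonatal 4, 7 and 8). Adult replicate 4 was lowest and neonatal replicate 7 highest, and adult replicate 2 lay just below neonatal replicate 4. The log2 fold change was -2.85 ± 0.95 (SE, edgeR adjusted p = 0.300) on 6 libraries and -3.30 ± 0.90 (SE, edgeR adjusted p = 0.0785) on 5. Without neonatal replicate 7 it was -1.85 (edgeR adjusted p = 0.607). With the length and GC trend removed on 5 libraries it was -2.57 (edgeR adjusted p = 0.192). The GC content of Itgb7 transcripts was 58.0%, in the highest of the 4 classes. Itgb7 passed with DESeq2 on 6 libraries (DESeq2 adjusted p = 0.0232, range over 21 alternatives 0.0200 to 0.609). Lymphocytes also carry beta7 and PSGL-1. The sum of 9 B cell markers was 38.8 to 70.2 CPM across adult and 73.3 to 150.9 CPM across neonatal libraries. Most of it came from Cd79b (28.3 to 68.5 CPM against 70.7 to 146.2 CPM), while Cd79a stayed under 1.25 CPM. Igll1 had 0.737, 0.313 and 9.41 CPM (adult 1, 2 and 4) against 1.49, 0.142 and 0.193 CPM (neonatal 4, 7 and 8). Ms4a1, Pax5 and Blk were among 4 genes at 0 counts. The sum of 13 T and NK cell markers was 1.58 to 4.01 CPM in adult and 1.97 to 2.99 CPM in neonatal libraries, with Cd3e, Cd3g, Cd4, Ncr1 and Gzma at 0. The part of lymphocytes in the Itgb7 and Selplg differences was not tested.

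Itga5 and Itga6 encode the beta1 partners that bind fibronectin and laminin. Itga5 (chromosome 15, 103344286 to 103366748) had 36.7, 33.3 and 35.6 CPM (adult 1, 2 and 4) against 5.98, 94.7 and 84.8 CPM (neonatal 4, 7 and 8). The adult values were the tightest of the 9 genes, while the shallow neonatal library, with 20 counts, was far below the other two. On the 5 deep libraries Itga5 fell in the adult libraries, where its log2 fold change was -1.36 ± 0.18 (SE, edgeR adjusted p = 0.0360). On 6 libraries it was -0.82 ± 0.78 (SE, edgeR adjusted p = 0.752), and with the trend removed on 5 libraries -0.61 (edgeR adjusted p = 0.157). Without neonatal replicate 7 or 8 it was -0.39 or -0.54, and its adjusted p spanned 1.79e-11 to 0.981 over 21 alternatives. The GC content of its transcripts was 57.3%, in the highest of the 4 classes.

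Itga6 (chromosome 2, 71787083 to 71856758) had 33.3, 31.5 and 8.29 CPM (adult 1, 2 and 4) against 7.77, 63.9 and 121.7 CPM (neonatal 4, 7 and 8). Adult replicate 4 and the shallow neonatal library were nearly equal, each well below the rest of its group, and the groups overlapped. Its log2 fold change was -1.41 ± 0.89 (SE, edgeR adjusted p = 0.600) on 6 libraries and -1.94 ± 0.60 (SE, edgeR adjusted p = 0.0980) on 5. Without neonatal replicate 8 it was -0.58 (edgeR adjusted p = 0.901). The summed level of 11 megakaryocyte and platelet markers, cells that carry alpha6, was 18.7, 21.4 and 2.18 CPM (adult 1, 2 and 4) against 3.29, 30.8 and 73.5 CPM (neonatal 4, 7 and 8), low in the same pair of libraries as Itga6. Most of the sum in neonatal replicates 7 and 8 came from Itga2b (6.73 and 44.3 CPM) and Itgb3 (19.2 and 24.7 CPM). Both are integrin chains, at 0.352 to 2.14 and 0.888 to 10.6 CPM in adult libraries. Gp5 and Gp6 of that list had 0 counts throughout, and the part of megakaryocytes and platelets in the Itga6 values was not tested.

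Selplg (chromosome 5, 113817798 to 113830501) had the log2 fold change that moved least over the alternatives among the 9. It had 122.7, 206.5 and 147.4 CPM (adult 1, 2 and 4) against 380.2, 437.9 and 398.1 CPM (neonatal 4, 7 and 8). Here the shallow library, with 1272 counts, sat with the other neonatal ones, and the groups did not overlap. The mean was 158.9 ± 43.1 CPM for adult against 405.4 ± 29.5 CPM for neonatal LICs (SD, 3 libraries a group). The log2 fold change was -1.35 ± 0.31 (SE, edgeR adjusted p = 0.158) on 6 libraries and -1.41 ± 0.25 (SE, edgeR adjusted p = 0.0402) on 5. Over 21 alternatives it ran from -1.59 to -1.23 (adjusted p 2.25e-05 to 0.448), and with the trend removed on 5 libraries it was -1.26 (edgeR adjusted p = 0.0885).

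**Figure D2:**
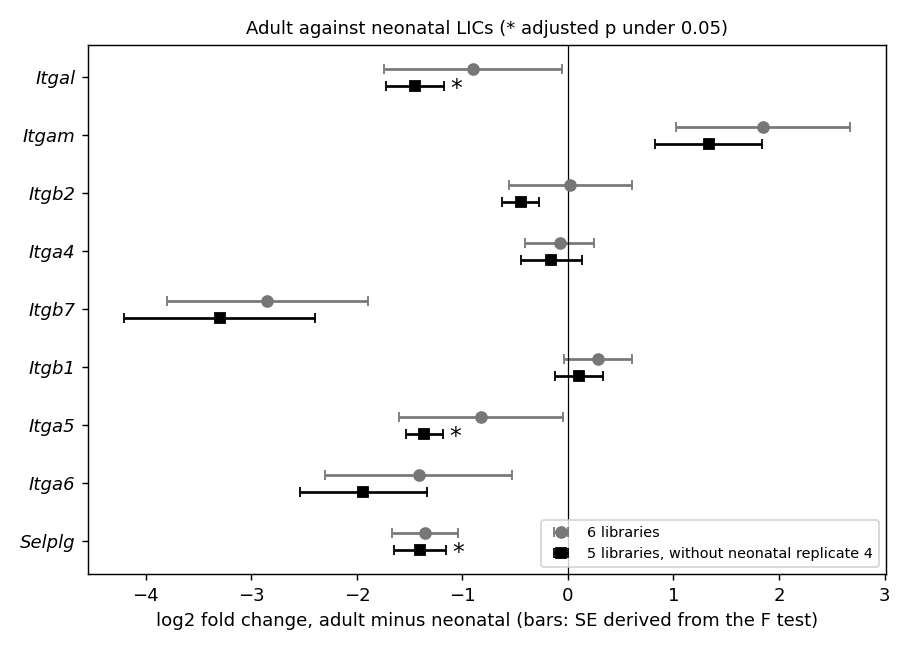
Log2 fold change, adult minus neonatal, of the 9 genes on 6 libraries (circles) and on 5 libraries without neonatal replicate 4 (squares), with bars for the SE derived from the F test and a star for an edgeR adjusted p under 0.05. Stars stand at Itgal (-1.45), Itga5 (-1.36) and Selplg (-1.41) on 5 libraries, and none stands on 6.

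Levels between genes were compared per exon length, as RPKM. In adult LICs Itgb2 (83.4 ± 7.67 RPKM), Itgb1 (70.6 ± 13.8 RPKM) and Selplg (61.0 ± 16.5 RPKM) led the order (SD, n = 3 each), and neighbours among these 3 overlapped. Itgam followed at 28.0 ± 16.5 RPKM, apart from Selplg above it and Itga5 below. Itga5, Itgal, Itga4, Itga6 and Itgb7 had means of 8.07, 7.53, 6.86, 5.80 and 4.16 RPKM, each overlapping the next. In neonatal LICs Selplg led at 155.7 ± 11.3 RPKM, apart from Itgb2 at 82.0 ± 54.2 RPKM (SD, n = 3 each). Itgb1, Itgb7, Itga6, Itga5, Itgal, Itgam and Itga4 then followed at 58.0, 29.8, 15.3, 14.2, 13.9, 7.68 and 7.23 RPKM, with every neighbour overlapping. Itgam was thus 4th of 9 in adult and 8th in neonatal LICs, and Itgb7 was 9th and 4th.

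Ratios within a library do not depend on its scaling, though they keep its trend on length and GC, and 10 were compared by exact two-sided permutation tests, which cannot go below p = 0.1 with 3 libraries against 3. For 5 ratios the groups did not overlap, at the smallest p the test can give (0.1, and 0.2 adjusted over the 10). Each of the 5 holds Itgam, Itgb7 or Selplg, whose CPM alone did not overlap on 6 libraries, so they partly restate those separations. Itgam over Itgal was 2.56, 7.60 and 1.96 in adult replicates 1, 2 and 4, and 0.881, 0.770 and 0.387 in neonatal replicates 4, 7 and 8. Itgam was the more abundant alpha chain per length in every adult library and Itgal in every neonatal one. Itgam over Itgb2 was 0.300, 0.501 and 0.178 in adult and 0.0475, 0.122 and 0.0772 in neonatal libraries. Selplg over Itgb2 was 0.577, 0.864 and 0.738 in adult and 7.24, 1.61 and 1.26 in neonatal libraries.

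Itgb7 over Itgb1, the partners between which alpha4 is shared, was 0.0564, 0.135 and 0.00925 in adult and 0.181, 0.823 and 0.380 in neonatal libraries. Itga4 over Itgb7 was 1.60, 1.07 and 7.70 in adult and 0.820, 0.164 and 0.248 in neonatal libraries, so beta7 reads per length exceeded alpha4 reads in each neonatal library and in no adult one. The log2 ratios of Itga4 to Itgb1 (adult minus neonatal -0.34, exact p = 0.4), Itga5 to Itga4 (-0.0033, exact p = 1.0), Itga6 to Itga4 (-0.89, exact p = 0.5), Itgal to Itgb2 (-0.42, exact p = 0.5) and Itgb2 to Itgb1 (0.09, exact p = 0.9) overlapped between the groups on 6 libraries. Without neonatal replicate 4, 3 of these 5 no longer overlapped, each lower in adult LICs at exact p = 0.2. The log2 differences were then -1.25 for Itga5 to Itga4, -2.003 for Itga6 to Itga4 and -0.997 for Itgal to Itgb2.

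**Figure D3:**
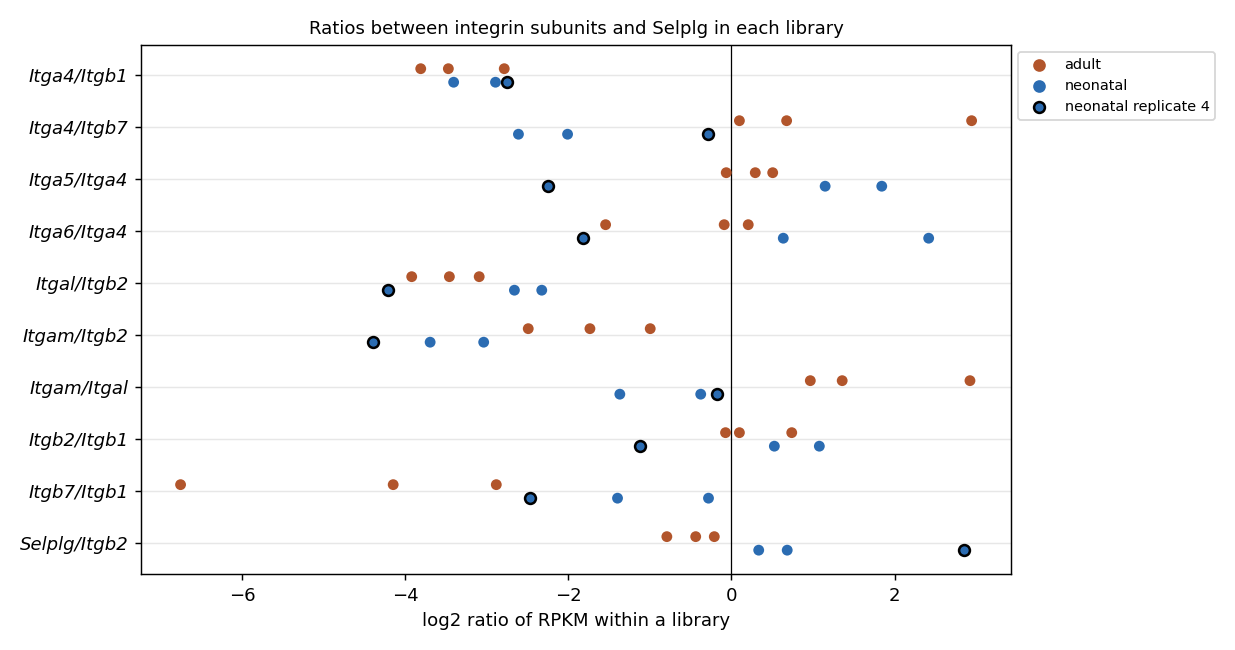
Log2 ratio of RPKM within each library for 10 pairs of genes, adult libraries above neonatal ones in each row, with neonatal replicate 4 outlined. Adult and neonatal points separate for Itga4/Itgb7, Itgam/Itgb2, Itgam/Itgal, Itgb7/Itgb1 and Selplg/Itgb2, and overlap for the other 5 on 6 libraries.

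Alpha chains compete for a common beta chain, so their make-up was also set out as shares. Of the RPKM summed over Itgal, Itgam, Itgax and Itgad, the partners of beta2, Itgam made up 71.8%, 87.9% and 62.7% in adult replicates 1, 2 and 4, and 46.8%, 42.8% and 27.7% in neonatal replicates 4, 7 and 8. Itgax and Itgad, chains of dendritic cells and macrophages, together stayed below Itgal and Itgam in every library. Among the 12 partners of beta1 the shares of Itga1, Itga4, Itga5 and Itga6 overlapped between the groups. That of Itgav, the alphav chain, did not, at 15.2%, 9.56% and 16.2% (adult 1, 2 and 4) against 3.21%, 6.51% and 6.24% (neonatal 4, 7 and 8). The level of Itgav itself overlapped, at 23.5 to 31.1 CPM in adult against 4.48, 33.0 and 29.1 CPM (neonatal 4, 7 and 8). The RPKM summed over the 12 partners was 20.6 to 36.1 in adult LICs against 19.8, 71.8 and 66.1 (neonatal 4, 7 and 8). Itga4 made up 22.1% to 27.9% in adult LICs and 32.9%, 13.6% and 8.19% in neonatal replicates 4, 7 and 8. Itga1, a collagen-binding chain that is not one of the 9 genes, ranged from 1.39% to 25.5% in adult and from 9.57% to 47.5% in neonatal libraries.

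**Figure D4:**
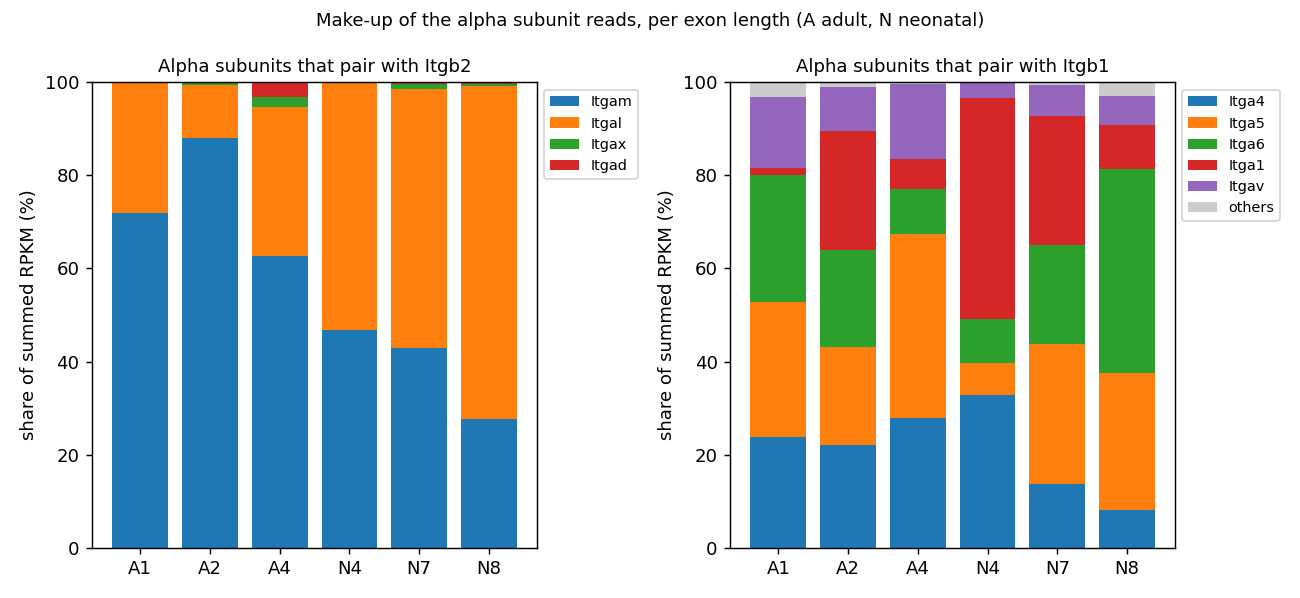
Share of the summed RPKM of the alpha chains that pair with beta2 (left) and beta1 (right) in each library, each bar adding to 100%. Itgam fills 62.7% to 87.9% of the beta2 bars in adult libraries and 27.7% to 46.8% in neonatal ones.

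Genes around these 9 were read from the same fits in lists of adhesion genes. Of 115 such genes tested on 6 libraries none passed by edgeR, where 0.0527% of all genes tested did. DESeq2 called 8 of the 141 it tested, against 785 of 16927 genes. Of 122 tested by edgeR on the 5 deep libraries 9 fell in adult LICs, against 3.72% of 13856 genes, and 1 rose, against 2.25%. None of these 10 calls held with the length and GC trend removed on 5 libraries, though the sizes did not all shrink. Elane was then at 2.95, Cd44 at -1.66, Glg1 at -1.57 and Tns1 at -2.40 (log2 fold change, edgeR adjusted p 0.0746 to 0.0889), while Itgb5 was at -1.10, Slc35c1 at -0.99, Icam1 at -1.04, Git1 at -0.86 and Rapgef1 at -0.47. Lamc1 then had an edgeR adjusted p of 0.0965. In each case below, adjusted p-values are edgeR's on the 5 deep libraries, followed by the range over the alternatives.

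Among the other integrin chains 10 of 18 could be tested on 6 libraries (median log2 fold change -0.66), and Itgb5 alone passed on 5. Itgb5, which pairs with alphav to bind vitronectin, had 27.8 to 39.3 CPM across adult LICs against 118.0 and 109.9 CPM (neonatal 7 and 8) and 11.4 CPM (neonatal 4) (log2 fold change -1.83, adjusted p = 0.0320, range 1.37e-11 to 0.916). Itga1 had 2.41, 55.0 and 7.95 CPM (adult 1, 2 and 4) against 56.2, 119.8 and 37.8 CPM (neonatal 4, 7 and 8), with overlap.

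Proteins that switch integrins on from inside, such as talin, kindlin-3 and RAP1, had a median log2 fold change of 0.14 over 24 genes on 6 libraries and -0.13 on 5. Rapgef1, an exchange factor for RAP1, fell on 5 libraries (log2 fold change -1.10, adjusted p = 0.0499, range 0.000584 to 0.993). Rap1b, the most abundant of them per length, was at 566.4 to 871.2 CPM across adult LICs against 360.2 to 672.2 CPM across neonatal ones (log2 fold change 0.58, edgeR adjusted p = 0.592 on 6 libraries), and Skap2, an adaptor next in level, at 276.1 to 423.1 and 168.3 to 283.9 CPM. Below bound integrins (22 genes, median 0.09 on 6 libraries), the tensin gene Tns1 and the paxillin partner Git1 fell on 5 libraries, with log2 fold changes of -2.90 and -1.73 (adjusted p = 0.0360 for both, ranges 4.55e-09 to 0.941 and 2.22e-06 to 0.928). Parvg and Ilk, which form a complex at the beta tail, did not pass (log2 fold changes -0.22 and 0.00 on 6 libraries).

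For ligands of integrins (12 genes tested on 6 libraries, median -0.67) Icam1, a counter-receptor of LFA-1 and Mac-1, had 10.4, 12.4 and 20.7 CPM across adult LICs against 38.1 and 48.8 CPM (neonatal 7 and 8) and 6.87 CPM (neonatal 4). It fell on 5 libraries (log2 fold change -1.60, adjusted p = 0.0499, range 0.000547 to 0.928). Lamc1, a laminin chain, also fell on 5 libraries, with 0 counts in the adult libraries, 84 and 90 counts in neonatal replicates 7 and 8 and 0 in neonatal replicate 4. Against a floor of 3 counts over the adult group it was at least 80.3-fold lower than in neonatal replicates 7 and 8 (adjusted p = 0.0456, range over 9 alternatives 7.17e-05 to 0.405). Cd47, the highest of this list per length and a partner of integrins on the same cell, was at 1152 to 1476 CPM across adult LICs against 1432 to 1715 CPM across neonatal ones. Icam2 was at 17.3 to 82.9 and 59.2 to 144.4 CPM. Vcam1, the VLA-4 ligand of marrow stroma and macrophages, is named here because of its values. It had 426.1, 527.7 and 65.2 CPM (adult 1, 2 and 4) against 27.2, 88.5 and 13.6 CPM (neonatal 4, 7 and 8) (log2 fold change 2.97 ± 0.92, SE, edgeR adjusted p = 0.260 on 6 libraries). The sum of 11 macrophage markers was 76.7 to 132.8 CPM in adult and 44.8 to 125.4 CPM in neonatal LICs, most of it Emr1. Of the 7 tested on 6 libraries, 6 had a positive log2 fold change. C1qa, C1qb, C1qc and Cd5l were higher in adult libraries without overlap (C1qb 2.20 to 6.38 against 0 to 0.726 CPM). Cd163 was lower without overlap (2.40 to 6.45 against 7.47 to 12.1 CPM). The sum of 8 stromal markers was 11.8 to 17.4 CPM in adult and 21.2 to 111.7 CPM in neonatal libraries, without overlap. Of the 8, 5 stayed under 1 CPM in every library. Neonatal replicate 8, with the highest sum, had 0 counts of Col1a1, Col1a2, Col3a1, Cxcl12 and Kitl. The part of macrophages and stromal cells in the Vcam1 and Lamc1 values was not tested.

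Selplg binds selectins only once sugars and sulphate are added. Of 15 genes tested for these steps (median -0.40 on 6 libraries, -0.31 on 5), Slc35c1, which carries GDP-fucose into the Golgi, fell on 5 libraries. It had 68.9 to 83.3 CPM across adult LICs against 209.0 and 271.5 CPM (neonatal 7 and 8) and 38.9 CPM (neonatal 4) (log2 fold change -1.65, adjusted p = 0.0320, range 2.14e-11 to 0.884). Fut7, the fucosyltransferase that completes the selectin-binding sugar in leukocytes, is likewise named because of its values and had 18.6, 43.5 and 26.4 CPM (adult 1, 2 and 4) against 30.5, 93.3 and 60.2 CPM (neonatal 4, 7 and 8) (log2 fold change -1.06 ± 0.49, SE, edgeR adjusted p = 0.459 on 6 libraries). Galnt1 and Tsta3, the most abundant per length, had log2 fold changes of 0.04 and -0.23 on 6 libraries and did not pass.

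Selectins and carriers of selectin ligands had a median log2 fold change of 0.04 on 6 libraries and 0.05 on 5. Of 10 genes tested on 5 libraries, 5 had a negative log2 fold change and 5 a positive one. Of these, Cd44 and Glg1, whose products bind E-selectin, fell in adult LICs on 5 libraries. Their log2 fold changes were -1.39 and -1.82 (adjusted p = 0.0360 and 0.0320, ranges 2.06e-06 to 0.807 and 3.55e-13 to 0.822). Cd44 had 82.2 to 119.7 CPM across adult LICs against 252.6 and 291.6 CPM (neonatal 7 and 8) and 81.6 CPM (neonatal 4). Cd37, a tetraspanin high in this list, was at 131.3 to 230.6 and 105.5 to 271.8 CPM. In the list of proteases that cut adhesion molecules, Elane, the neutrophil elastase gene, rose on 5 libraries (log2 fold change 2.82, adjusted p = 0.0360, range 2.77e-10 to 0.885), with 8257 to 9479 CPM across adult LICs against 1786 and 726.2 CPM (neonatal 7 and 8) and 7806 CPM (neonatal 4). Ctsg, next to it in level, overlapped at 2010 to 3163 and 1095 to 4354 CPM. None of 15 other homing genes passed on 5 libraries. The tetraspanin Cd63 was at 949.1 to 1260 CPM across adult LICs against 388.7 to 703.3 CPM across neonatal ones, Cd53 at 581.5 to 881.6 and 668.8 to 1329 CPM, and Amica1 under 1.25 CPM throughout.

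For the 3 genes with the widest range over the 6 libraries, Itgb7, Itgam and Itgal, the genes most like them were sought by the root mean square difference of centred log2 CPM, among genes with a mean of at least 10 CPM. Nearest to Itgb7 were Stag3, Cyp4f18 and Plxnb2, at 0.46, 0.55 and 0.78. Closest to Itgam were Klf11, B430306N03Rik and Skil, at 0.40, 0.46 and 0.47. Those of Itgal included Zer1 and another of the 9 genes, Itga5, at 0.23 and 0.28. All these profiles share the same 6 libraries, and neonatal replicate 4 is low in those most like Itgam and Itgal.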

How the data were processed

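RNA of sorted LICs was sequenced single-end in 6 libraries. Per the file headers, the deposited values are raw counts of reads per gene, made by the authors with featureCounts v1.5.1 (primary alignments, no strand option) on a UCSC mm10 annotation. Trimmomatic, TopHat, Bowtie and DESeq2 appear in the submitters' processing notes with no version. The kit did not mark strand, so antisense reads are counted with a gene. Exon length per gene was the deposited Length value.

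The counts were tested with edgeR 4.0.16 in R 4.3.3. Genes were kept by filterByExpr at a minimum count of 10, libraries scaled by TMM, and adult minus neonatal tested by a quasi-likelihood F test (robust), with Benjamini-Hochberg adjustment at 0.05. The filter kept 13272 genes on 6 libraries and 13856 on 5. The SE is the absolute log2 fold change over the square root of F. CPM and RPKM used TMM-scaled library sizes. GC content came from GENCODE vM21 transcripts (98.6% of genes kept), and its trend was removed by loess offsets. Alternatives used DESeq2 1.42.0 and limma 3.58.1. The fit was tested on simulated counts. Replicate pairs differed beyond counting noise, and no 2 libraries were identical.

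The 9 genes and the lists were chosen with earlier results of these data known. Named list genes were those called (at most 4 a list), otherwise the 2 with the smallest adjusted p, and the 2 highest per length. Vcam1 and Fut7 were added after their values were seen. The 3 genes most like a member were named for the 3 members with the widest range. Some genes that this rule or the lists hold are not reported here.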

Additional observations from a re-analysis of the deposited data

How the results depend on the processing

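On 6 libraries edgeR called 7 genes, 0 of the 9 and 0 adhesion list genes. DESeq2, which tested 141 list genes against edgeR's 115, called 785, 2 and 8, and limma voom with library quality weights 1056, 2 and 13. Without neonatal replicate 4 the counts were 828, 3 and 10 by edgeR, 3448, 6 and 39 by DESeq2 and 928, 3 and 14 by limma voom, the last pair chosen after seeing the data. Leaving out 1 library at a time gave 1 to 828 genes, 0 to 3 of the 9 and 0 to 10 list genes. Thinning all libraries to 3932833 counts gave 11 genes, leaving out chromosomes X and Y 0, and length and GC offsets, also added after seeing the data, 11 on 6 libraries, in each case with 0 of the 9. The cause was not tested.

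Itgb2 reversed to -0.0052 on library totals, -0.25 with quality weights, -0.10 thinned, -0.05 without adult replicate 2, and -0.45, -0.46 and -0.45 without neonatal replicate 4 (edgeR, DESeq2, limma), or -0.011 with offsets there, where Itgb1 reversed to -0.085. With 1 library left out it ran from -0.45 to 0.41. Itga4 reversed to 0.03 without adult replicate 4 and 0.21 without neonatal replicate 7. With 1 library left out, differences of log2 ratios ran from -1.25 to 0.79 for Itga5/Itga4, -2.003 to 0.11 for Itga6/Itga4, -0.997 to -0.054 for Itgal/Itgb2 and -0.55 to 0.55 for Itgb2/Itgb1. No paired analysis was possible because the groups share only replicate number 4. Neonatal replicate 4 had 15 to 26 counts for Itgam, Itgal, Itga5 and Itga6. The upper Poisson bounds of 7.39 to 11.4 CPM lay below the values of neonatal replicates 7 and 8. These bounds hold counting error only, and the cause of that gap was not tested.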
